A study of Mus musculus with 4 samples.

Results

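Interferon-high epithelial cells were the epithelial barcodes of these mouse prostate tumours that carried several interferon-induced transcripts at once. A barcode counted as epithelial when it had at least 3000 UMIs (unique molecular identifiers, each standing for 1 captured transcript), with at most 20% of them from mitochondrially encoded genes. It also needed at least 10 UMIs of the keratins Krt8, Krt18, Krt5 and Krt14 together and at most 1 UMI of the myeloid genes Csf3r, C1qa and C1qb together. It was interferon-high when at least 3 of the 6 genes Ifit2, Rsad2, Cxcl10, Cmpk2, Oasl1 and Ifit1bl1 had 3 or more UMIs each. The rule took in 667 of 8609 epithelial barcodes, out of 33061 barcodes in all. They are set beside 5595 epithelial barcodes in which none of the 6 genes reached 3 UMIs, named comparison cells in what follows, and the other 2347 epithelial barcodes had 1 or 2 of the genes at that count. The members were chosen by the counts of these same cells, so every difference between interferon-high and comparison cells is given as a description with no test. The tests concern the genotype of the mice, which the rule did not read.

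The cells came from 4 whole tumours, 1 per mouse, dissociated with collagenase and trypsin and profiled with 10x Genomics droplet libraries that read the 3′ ends of transcripts. The 2 PSp mice carried, among others, the alleles PB-Cre, SpopF133V and mTmG. The 2 PCSp mice carried all of these and Chd1L/L. All 4 mice, PSp controls included, therefore had the Spop allele, and all were castrated at 9 months of age, with tumours taken 1 month later. PB-Cre places the recombinase under the probasin promoter, which is active in prostate epithelium, and mTmG is a fluorescent reporter of that recombinase. With 2 mice per genotype and no litter or batch in the labels, p-values measure only the spread between these tumours.

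Type I interferons, such as interferon beta, and type III interferons, the lambda interferons, are secreted by cells whose sensors detect foreign or misplaced nucleic acid. Their receptors signal through JAK kinases to a complex that includes STAT2 and IRF9 and binds the interferon-stimulated response element of antiviral genes. Receptors for the lambda interferons are found mainly on epithelial cells. Among the genes of the rule, Rsad2 encodes viperin, which makes a nucleotide that stops viral polymerases, and Cmpk2, its neighbour in the genome, encodes a mitochondrial nucleotide kinase. Ifit2 encodes a protein that binds viral RNA, Oasl1 an OAS-like protein that limits translation of Irf7, and Cxcl10 a chemokine that attracts T and NK cells through CXCR3. In the GENCODE annotation of GRCm38, Rsad2 (minus strand, chr12:26442746-26456452) and Cmpk2 (plus strand, chr12:26469204-26479837) lie side by side. Ifit2 (chr19:34550694-34576419), Ifit3 (chr19:34583531-34588731), Ifit1bl1 (chr19:34592891-34601956) and Ifit1 (chr19:34640871-34650009) share another stretch. Cxcl10 (chr5:92346638-92348889) and Oasl1 (chr5:114923240-114937915) lie apart on chromosome 5.

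The sequences below are the 250 bases before the RefSeq transcription start (GRCm38.p6) of 2 rule genes, Rsad2 and Cxcl10, and of 2 abundant genes outside the rule, Ifit3 and Isg15. They are shown because the core of the response element can be read in them. Each runs 5′ to 3′ on the strand of its gene, and capitals mark every match to GAAA, any 2 bases and GAAA again on either strand (TTTC, any 2 bases and TTTC when it lies on the other strand), with overlapping matches running together. The windows are chr12:26456453-26456702 (minus strand) for Rsad2, chr5:92348890-92349139 (minus) for Cxcl10, chr19:34583279-34583528 (plus) for Ifit3 and chr4:156200819-156201068 (minus) for Isg15.
Rsad2: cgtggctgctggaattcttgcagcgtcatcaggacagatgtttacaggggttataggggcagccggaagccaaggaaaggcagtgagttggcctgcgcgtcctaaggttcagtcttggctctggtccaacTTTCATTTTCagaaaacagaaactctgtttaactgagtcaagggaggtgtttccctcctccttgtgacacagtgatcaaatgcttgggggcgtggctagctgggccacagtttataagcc
Cxcl10: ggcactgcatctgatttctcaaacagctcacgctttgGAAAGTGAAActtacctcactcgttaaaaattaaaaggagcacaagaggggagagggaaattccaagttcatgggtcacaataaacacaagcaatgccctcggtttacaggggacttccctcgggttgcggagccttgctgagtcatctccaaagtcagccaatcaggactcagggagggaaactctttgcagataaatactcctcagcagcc
Ifit3: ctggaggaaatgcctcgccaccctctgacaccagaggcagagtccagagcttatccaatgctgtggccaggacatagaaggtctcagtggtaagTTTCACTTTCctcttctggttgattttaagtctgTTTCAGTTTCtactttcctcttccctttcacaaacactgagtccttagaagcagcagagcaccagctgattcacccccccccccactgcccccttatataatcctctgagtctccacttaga
Isg15: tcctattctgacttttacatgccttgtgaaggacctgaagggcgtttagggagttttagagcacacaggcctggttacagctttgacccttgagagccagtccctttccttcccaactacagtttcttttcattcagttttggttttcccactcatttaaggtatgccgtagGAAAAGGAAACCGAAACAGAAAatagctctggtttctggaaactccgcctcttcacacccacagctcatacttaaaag
Counted from the transcription start, the match in Rsad2 began at -120, that in Cxcl10 at -213, those in Ifit3 at -156 and -122, and the 3 overlapping ones in Isg15 at -78, -72 and -66. The letters stood in 978 of 32851 windows of the same length (2.98%) across the RefSeq promoter table. Counted by gene, 936 of 27025 genes (3.46%) had a window with a match, and 260 of the 7825 described genes with a window (3.32%). Of the rule genes 3 of 6 had a match, and the windows of Ifit2, Cmpk2 and Oasl1 had none. Of the 136 genes at least 2-fold higher in the interferon-high cells of every mouse, described further on and including the 6 rule genes, 106 had a window and 37 of them (34.9%) held a match. Of the 216 genes at least 2-fold lower, 153 had a window and 4 (2.61%) held one. A match is a string of letters in this window and says nothing of binding.

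The 4 libraries held 6539 to 9656 barcodes and 66874620 to 90839725 UMIs. There were 198 interferon-high cells from PSp 1, 255 from PSp 2, 145 from PCSp 1 and 69 from PCSp 2. No interferon-high barcode was an interferon-high cell of another library, 3 of the 667 occurred as a barcode in another library, and 112 of 32948 barcode sequences were shared in the series as a whole. As in all droplet data, free RNA and pairs of cells in a droplet can add UMIs of genes that a cell does not express. The automatic doublet threshold of Scrublet marked no barcode, so the highest scores were taken instead (0.8% per 1000 barcodes of the library): these held 7.07%, 10.6%, 8.28% and 5.80% of the interferon-high cells of PSp 1, PSp 2, PCSp 1 and PCSp 2, and 5.17%, 5.31%, 6.70% and 9.42% of the comparison cells.

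The label was set beside markers that the rule did not read. The 12 genes of epithelial identity, such as Epcam, Cdh1 and the claudins, summed to 10919 to 12029 CPM (the UMIs of a gene summed over the same cells of 1 mouse and scaled to a total of 1000000) in interferon-high cells and to 7348 to 10019 CPM in comparison cells. Epcam, an adhesion protein of epithelia, reached 2276 and 2014 CPM in interferon-high cells of PSp and 2626 and 2783 CPM in those of PCSp. The 12 macrophage and monocyte markers summed to 133 to 386 CPM in interferon-high and 1040 to 1688 CPM in comparison cells, where Apoe made up most of the sum (1331 ± 314 CPM, SD, n = 4 mice); 0 to 2 of the 12 were at 0 in the interferon-high cells of a mouse. The 12 neutrophil markers summed to 13.9 to 100 CPM against 26.9 to 85.3 CPM, with 2 or 3 at 0. The 13 T and NK cell markers summed to 24.4 to 46.9 CPM against 38.0 to 48.5 CPM, with 2 to 5 at 0. The 10 fibroblast markers were lower in interferon-high cells, at 35.2 to 179 CPM against 462 to 878 CPM. Dendritic cell markers, without Bst2, which interferon induces in many cells, summed to 0.789 to 5.17 CPM against 0.518 to 1.51 CPM, with 1 to 5 of 7 at 0. Against comparison cells with mainly luminal keratins, which are described further on, the members' macrophage and monocyte sum stood beside 210 to 324 CPM. Their fibroblast sum stood beside 143 to 275 CPM and their epithelial sum beside 9884 to 11970 CPM. In that comparison the epithelial sum of the members was higher in both PSp mice and slightly lower in both PCSp mice. Markers of other cell types were thus low beside the epithelial ones. The rule's floor on keratins and limit on myeloid genes favoured this outcome in advance, so it gives the name no independent support. The epithelial name was kept as the rule sets it.

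The members were not spread evenly over the epithelium. Cells with fewer basal than luminal keratin UMIs (Krt5 and Krt14 against Krt8 and Krt18) were interferon-high in 14.1% and 14.4% of cases in PSp and 7.94% and 4.53% in PCSp. Cells with basal keratins at least as abundant were interferon-high in 1.16%, 0.570%, 0.702% and 0% of cases, and the last, 0 of 620 cells, allows up to 0.593% by its exact Clopper-Pearson 95% interval. Accordingly 0.784% to 3.45% of the interferon-high cells had basal keratins in 3 mice and none had in PCSp 2, against 25.3% to 39.2% of comparison cells. Interferon-high cells were also deeper: their median UMI counts were 46574.5 and 37742 in PSp, and 32273 and 24677 in PCSp, against 14163 to 16914.5 in comparison cells. The rule counts UMIs without scaling them to depth, so a deep cell meets it more easily. Their median share of mitochondrial UMIs was 5.63%, 6.46%, 5.06% and 4.37%, against 4.04%, 5.39%, 3.59% and 3.54% in the comparison cells of the same mice.

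Rsad2 and Oasl1 carried the state in nearly every member. Rsad2 reached 3 UMIs in 657 of the 667 cells (98.5%) and Oasl1 in 602 (90.3%), followed by Cxcl10 in 476 (71.4%) and Cmpk2 in 422 (63.3%). Ifit2, the first gene of the rule, reached it in 198 cells (29.7%) and Ifit1bl1 in 162 (24.3%). The most frequent combination was Rsad2, Cxcl10 and Oasl1 alone, in 139 cells (20.8%), and 50 cells (7.50%) had all 6. Ifit2 was spread unequally: its median was 1 UMI per member, its maximum 174, and the 10 cells with most Ifit2 held 29.8% of its UMIs in members, against 13.4% for Rsad2. As levels, which the rule fixed to be high, Rsad2 was at 802 and 754 CPM in PSp and 851 and 1060 CPM in PCSp, against 9.47 to 18.5 CPM in comparison cells. Cxcl10 was at 628 and 465 CPM and at 827 and 681 CPM. The members held 58.5% (PCSp 2) to 71.2% (PSp 1) of the Rsad2 UMIs of all epithelial barcodes of their mouse, which the rule also fixed to be high. Of the UMIs of all genes in epithelial barcodes they held 11402348 of 53553937 in PSp 1 and 2215308 of 42353345 in PCSp 2.

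Genes outside the rule were graded with the number of rule genes, with no step at the threshold. Isg15, which encodes a ubiquitin-like protein attached to other proteins during infection, had a mean level over the 4 mice of 275, 543 and 995 CPM in cells with 0, 1 and 2 rule genes, and of 1260, 2085, 3507 and 5376 CPM in cells with 3, 4, 5 and 6. Just outside the rule (2 genes) and just inside it (3 genes), Isg15 was thus at 995 ± 96.5 and 1260 ± 71.2 CPM, Ifit3 at 418 ± 92.4 and 592 ± 147 CPM, and H2-K1, an MHC class I heavy chain, at 2550 ± 327 and 2629 ± 398 CPM (SD, n = 4 mice). Ccl5, a chemokine for T cells, differed in shape: it was at 13.4 and 20.8 CPM with 3 and 4 genes and at 143 ± 137 and 400 ± 292 CPM with 5 and 6, where the spread between mice was wide. Epcam differed little, with 2349 CPM at 3 genes and 2762 CPM at 6. Lineage genes shifted along the same grade. With 0, 1, 2 and 3 rule genes the basal keratin Krt5 had means of 779, 428, 149 and 107 CPM. Clu had means of 3509, 5438, 7712 and 8023 CPM. How far this shift adds to the grade of the other genes was not tested. Of the members, 338 had 3 genes, 192 had 4, 87 had 5 and 50 had 6.

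**Figure D1:**
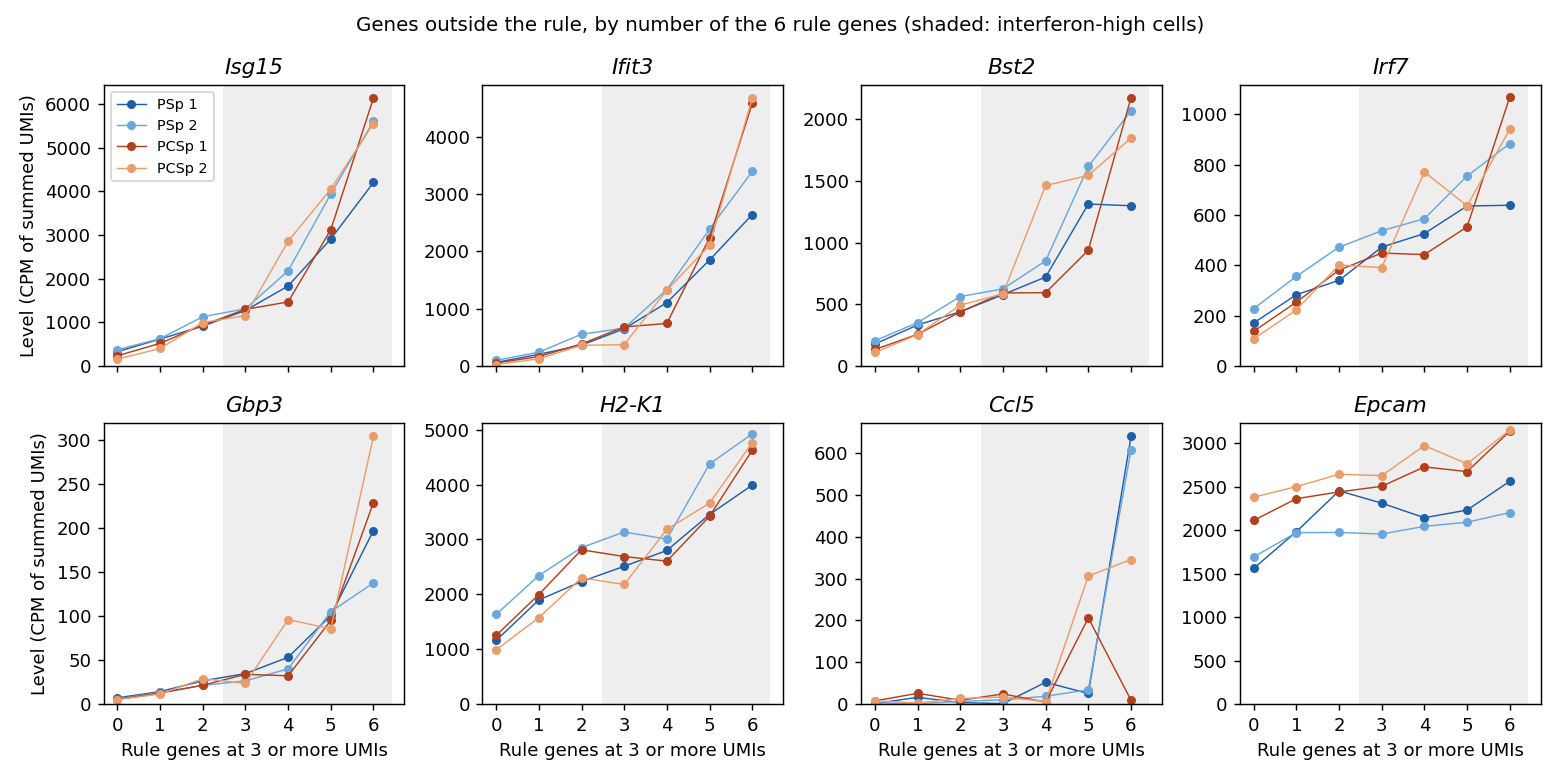
Level of 8 genes outside the rule (vertical axis, CPM of the summed UMIs of 1 mouse) against the number of rule genes at 3 or more UMIs (horizontal axis), with 1 line per mouse and the interferon-high cells on a grey ground. Isg15 climbs from a mean of 275 CPM at 0 genes to 5376 CPM at 6 without a step at the threshold, the mean of Ccl5 is highest at 5 and 6 genes, where mice differ widely, and the mean of Epcam lies between 1936 and 2762 CPM.

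Interferon-high cells made up a larger share of the epithelium in the PSp tumours. The share was 10.5% (exact Clopper-Pearson 95% interval 9.19 to 12) in PSp 1, 12.1% (10.7 to 13.5) in PSp 2, 5.86% (4.96 to 6.85) in PCSp 1 and 3.22% (2.51 to 4.06) in PCSp 2, intervals that cover counting error only. Both PSp mice lay above both PCSp mice. The means were 11.3% ± 1.08 and 4.54% ± 1.86 (SD, n = 2 mice each), 2.49 times as high in PSp, and the exact permutation p was 0.333 (two-sided), the smallest that 2 against 2 mice can give. The groups also stayed apart when 4 of the 6 genes were asked for, with 5.11% and 5.97% in PSp against 2.83% and 1.73% in PCSp.

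The size of this difference depended on how depth was treated. When every epithelial barcode was thinned to 3000 UMIs and 1 UMI per gene was asked for, the shares were 5.59% and 6.16% in PSp and 3.55% and 2.47% in PCSp. With 3 UMIs per gene after thinning they were 1.38% and 1.23% in PSp and 1.25% and 0.560% in PCSp, where the genotypes overlapped (exact permutation p = 0.667). Among cells with 20000 to under 40000 UMIs, 10.3% and 12.5% were interferon-high in PSp and 6.70% and 4.90% in PCSp, and among cells with 40000 or more 29.5% and 26.9% against 18.1% and 7.43%. Among cells under 10000 UMIs the shares were 1.80% and 3.8% against 1.57% and 1.02%, and among cells with 10000 to under 20000 UMIs they overlapped, at 0.860% and 4.71% against 3.21% and 2.68%. The same counts of rule genes were also met outside the epithelium: by 16.7% and 19.0% (PSp) and 10.1% and 6.44% (PCSp) of barcodes with at least 2 myeloid UMIs and few keratin UMIs, and by 3.75% and 2.65% against 1.80% and 1.33% of barcodes with neither. Median depths were 3984 to 6196 UMIs in the myeloid barcodes and 4959 to 6125 UMIs in those with neither. Epithelial cells under 10000 UMIs met the rule in 1.02% to 3.8% of cases, as given above. In these 2 kinds of barcode outside the epithelium, too, both PSp mice lay above both PCSp mice. Barcodes with both keratin and myeloid UMIs, which the rule left out, met it in 23.9% and 34.5% against 10.2% and 4.86%. These were deeper, with medians of 21455 to 35050 UMIs. Whether free RNA or joined cells add to the members was not tested.

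**Figure D2:**
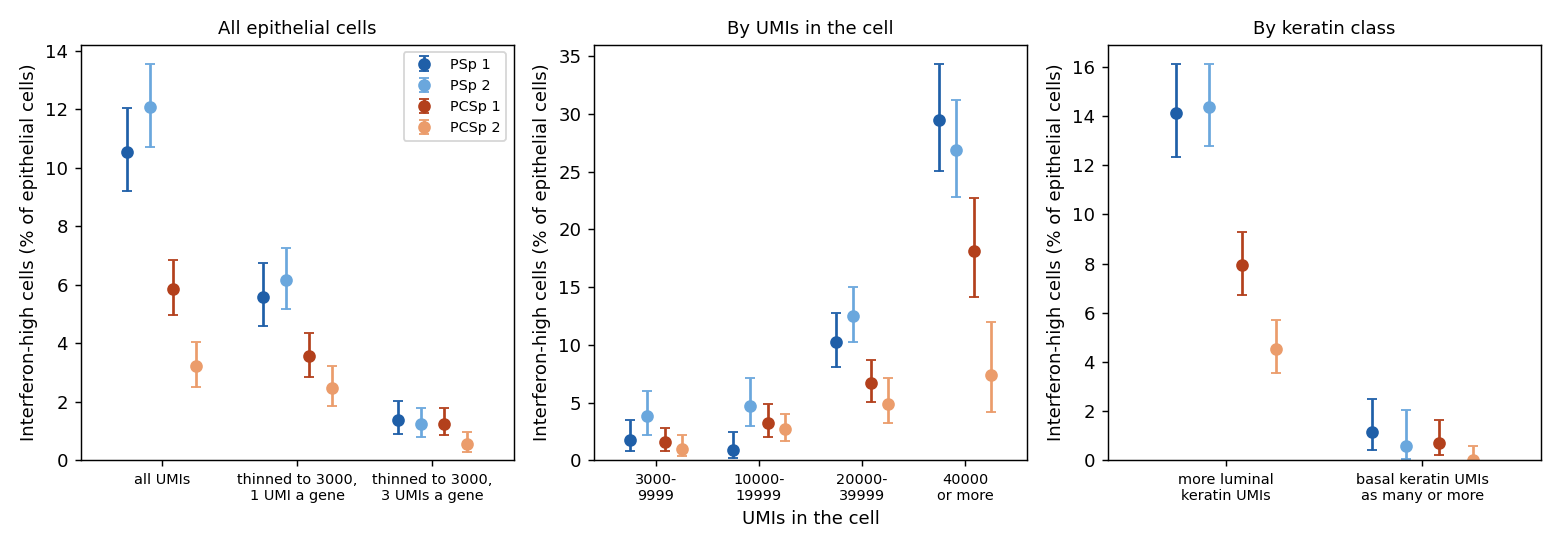
Interferon-high cells as a percentage of epithelial cells (vertical axes) in each mouse, with exact 95% binomial intervals as bars: over all epithelial cells without and with thinning, by UMIs in the cell, and by keratin class. The PSp mice (10.5% and 12.1%) lie above the PCSp mice (5.86% and 3.22%) with all UMIs. After thinning with 3 UMIs per gene PCSp 1 (1.25%) lies between the PSp mice (1.38% and 1.23%) and PCSp 2 is lower (0.560%). Cells with basal keratins are at or under 1.16%.

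Antiviral effector genes other than those of the rule were higher in interferon-high cells. Of 9852 genes with a mean of at least 5 CPM, 136 (1.38%) had a log2 ratio of at least 1 (CPM plus 1 on both sides) in each of the 4 mice and 216 (2.19%) a log2 ratio of -1 or less, and the median over the 9852 genes was 0.01. All ratios of interferon-high to comparison cells given from here on are on this log2 scale. Of 44 antiviral effectors measured, 40 were at this level, and 31 of these were at least 2-fold higher in every mouse, with a list median of 1.74. Ifit3 was at 1074 and 1261 CPM in the interferon-high cells of the PSp mice and 1031 and 1191 CPM in those of the PCSp mice, against 64.4, 99.4, 54.4 and 27.4 CPM in comparison cells, a mean log2 ratio of 4.33 ± 0.75 (SD, n = 4 mice). Ifit3 and its near copy Ifit3b may share reads, so the count of each is uncertain. Isg15 was at 1852, 2187, 1751 and 2277 CPM against 330, 375, 236 and 160 CPM in PSp 1, PSp 2, PCSp 1 and PCSp 2, a log2 ratio of 2.93 ± 0.62. No interferon-high value of these 2 genes came near a comparison value. Cells with 1 or 2 rule genes, left out of both groups, lay between (mean Isg15 543 and 995 CPM, mean Ifit3 185 and 418 CPM). Bst2, which encodes tetherin and holds budding virus at the cell surface, was at 845 ± 152 CPM against 157 ± 42.8 CPM (log2 ratio 2.44 ± 0.52). Zbp1, a sensor of Z-form nucleic acid that can start necroptosis, was at 218 ± 21.3 against 47.6 ± 11.9 CPM. Trim30a (2.75 ± 0.54) and Ifi207 (3.08 ± 0.70) were among the 20 genes with the highest lowest ratio, as were Apol9a and Apol9b, which are near copies of each other. Ifitm3, which blocks viral entry, was the most abundant of the list at 3454 ± 283 against 2220 ± 383 CPM. Its log2 ratio was only 0.65 ± 0.21.

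The immunity GTPases, which attack the membranes of intracellular microbes, were higher as a whole list. All 14 of the 20 measured members that reached 5 CPM were at least 2-fold higher in every mouse, and 17 of the 20 were so when the level was ignored; the median ratio of the 14 was 2.40. Gbp3 was at 60.9 and 48.1 CPM in PSp and 47.5 and 76.3 CPM in PCSp interferon-high cells, against 5.22 to 7.25 CPM in comparison cells (3.06 ± 0.39). Iigp1 was at 95.3 ± 18.8 against 13.3 ± 3.86 CPM, Gbp6 at 29.9 ± 2.09 against 4.14 ± 1.38 CPM, and Igtp at 76.5 ± 9.72 against 13.6 ± 3.29 CPM. Ubd, a ubiquitin-like modifier induced by interferon gamma and tumour necrosis factor, had the most even ratio of the 20 genes named for high ratios, 2.77 ± 0.14, at 155, 139, 173 and 202 CPM against 22.1 to 26.4 CPM.

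Transcripts of the MHC class I presentation genes were higher by a smaller factor. The 19 of 20 measured genes at 5 CPM all had a mean ratio above 0, with a median of 1.24, and 8 of them were at least 2-fold higher in every mouse. H2-K1 was at 2817 and 3377 CPM in PSp and 2816 and 2824 CPM in PCSp, against 1161, 1636, 1252 and 991 CPM in comparison cells (1.25 ± 0.20). B2m, the light chain of all class I molecules, was at 1953 ± 220 against 883 ± 215 CPM (1.17 ± 0.23). H2-Q6 and H2-Q7 had the largest ratios of the list, 1.95 ± 0.47 and 1.87 ± 0.43, and as near copies their counts are uncertain. Of the 6 class II genes at this level, Ctss, a protease that trims the invariant chain (1.60 ± 0.05), and Cd74, the invariant chain itself (1.28 ± 0.15), were at least 2-fold higher in every mouse.

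The sensors and the signalling chain differed gene by gene. Of 17 sensing genes at this level, 5 were at least 2-fold higher in every mouse, with a list median of 1.02. Ifih1, which encodes the RNA sensor MDA5, was at 169 ± 24.9 against 41.6 ± 5.33 CPM (1.99 ± 0.38), Dhx58, its regulator LGP2, at 67.1 ± 8.22 against 16.1 ± 5.08 CPM (2.04 ± 0.45), and Ddx58, the sensor RIG-I, at 136 ± 19.2 against 52.8 ± 10.2 CPM (1.35 ± 0.23). Of 16 receptor and signalling genes, 3 were, among them Irf7, the factor that amplifies interferon transcription (543 ± 54.0 against 162 ± 51.5 CPM, 1.79 ± 0.43), and Stat2 (101 ± 7.09 against 34.3 ± 7.76 CPM, 1.56 ± 0.32). The receptor chains were at similar levels in both groups of cells: the mean ratio was -0.10 for Ifnar1, 0.18 for Ifnar2, 0.41 for Ifnlr1 and 0.45 for Il10rb, and that of the kinase Jak1 was -0.19; these 5 genes were chosen after their values were seen. Of the inhibitors of the pathway, Usp18, which removes Isg15 from proteins and blocks the type I receptor, was at 223 ± 24.1 against 56.1 ± 14.0 CPM (2.00 ± 0.37). Socs3, a feedback inhibitor better known downstream of STAT3 and chosen after its values were seen, was at 52.4, 52.8, 52.8 and 28.4 CPM against 96.6, 102, 94.6 and 61.3 CPM.

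Among 16 chemokines at this level, Ccl5 was at least 2-fold higher in every mouse, and Cxcl12 and Cxcl14 at least 2-fold lower. It was at 74.2 and 52.2 CPM in PSp and 40.3 and 68.2 CPM in PCSp, against 1.55, 3.40, 7.97 and 8.50 CPM (3.39 ± 1.15). Its UMIs lay in 110 of 667 members (16.5%) and in 266 of 5595 comparison cells (4.75%), and 1 cell held 330 of the 1894 in members. Barcodes with few keratin and few myeloid UMIs had a Ccl5 UMI in 14.8% of cases and held 77.5% of its 39842 UMIs, and whether free RNA adds to the members' Ccl5 was not tested. Cxcl9, which shares the receptor of Cxcl10 and was chosen after its values were seen, was at 41.5, 14.7 and 22.2 CPM in PSp 1, PSp 2 and PCSp 1 against 0.518 to 1.40 CPM, but at 2.71 against 3.46 CPM in PCSp 2. The most abundant chemokines, Cxcl2 and Cxcl5, which attract neutrophils, were at 992 ± 290 against 451 ± 123 CPM and 802 ± 137 against 497 ± 125 CPM and did not reach the limit in every mouse. Of 24 NF-kB targets and cytokines, Tnf alone was at least 2-fold higher in each mouse (91.6 ± 28.7 against 27.1 ± 4.04 CPM, 1.68 ± 0.41). Of checkpoint and T cell ligands, Lgals9, which encodes galectin-9, was at 165 ± 15.4 against 38.6 ± 4.80 CPM (2.08 ± 0.28), and the tryptophan-degrading enzyme Ido1 was at 7.76 ± 1.15 against 0.518 ± 0.229 CPM. Cd274, which encodes PD-L1 and was chosen after its values were seen, was low, at 6.05 to 10.5 CPM against 1.36 to 1.84 CPM. Among 22 cell death and stress genes 3 were at least 2-fold higher in every mouse, including Mlkl, the executor of necroptosis (23.1 ± 2.60 against 6.91 ± 2.04 CPM), and Gdf15, a stress-induced cytokine (1.44 ± 0.40). None of 11 p53 targets, 18 immediate early and heat shock genes, 19 cell cycle genes or 19 cholesterol synthesis genes passed the limit in either direction in every mouse. Of the cell cycle genes, 18 of 19 had a mean ratio below 0 (median -0.37), beside 4783 of all 9852 genes.

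Genes of the basal lineage were lower, and most of this went with the keratin class. Of 14 basal genes, Krt5 and Krt14 not among them, 8 were at least 2-fold lower in every mouse, with a median of -1.47. The 10 genes named for the lowest ratios include Krt5 (-3.01 ± 0.40), Krt14 (-3.37 ± 1.19), the hemidesmosome collagen Col17a1 (-3.23 ± 0.86), the chemokine Cxcl14 (-3.19 ± 0.74) and the activin antagonist Fst (-4.00 ± 1.57). When cells with mainly luminal keratins were compared on both sides, which used the keratins to choose cells, 11 genes (0.112%) were lower and 78 (0.792%) higher in every mouse. All 20 genes named for high ratios were among the latter, and of the 10 named for low ratios Krt5 alone stayed lower. In that comparison the median of the basal list was -0.43, that of the antiviral effectors 1.44, of the GTPases 2.11 and of MHC class I 0.93. Fewer genes were then at least 2-fold higher in every mouse: 23 antiviral effectors, 13 GTPases, 4 of MHC class I in place of 8, 2 of sensing in place of 5, and none of the receptor and signalling or NF-kB lists in place of 3 and 1. Irf7 (1.39), Stat2 (1.24), Ddx58 (1.13), Tnf (1.19), Cd74 (0.90) and H2-K1 (0.93) were among those that no longer reached the limit in each mouse. The 11 luminal progenitor genes had a median of 0.26, and of -0.20 in luminal keratin cells, and 2 of them were at least 2-fold higher in every mouse over all cells. Of these 2, Clu, a secreted chaperone, was at 8379 ± 1121 against 3509 ± 976 CPM and Ly6a, which encodes the stem cell antigen Sca-1 and is itself induced by interferon, at 2703 ± 205 against 1161 ± 132 CPM; neither reached the limit in each mouse in luminal keratin cells (0.81 and 1.02). Foxa1, a transcription factor of luminal prostate epithelium, was at 137 ± 8.53 against 136 ± 9.34 CPM.

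**Figure D3:**
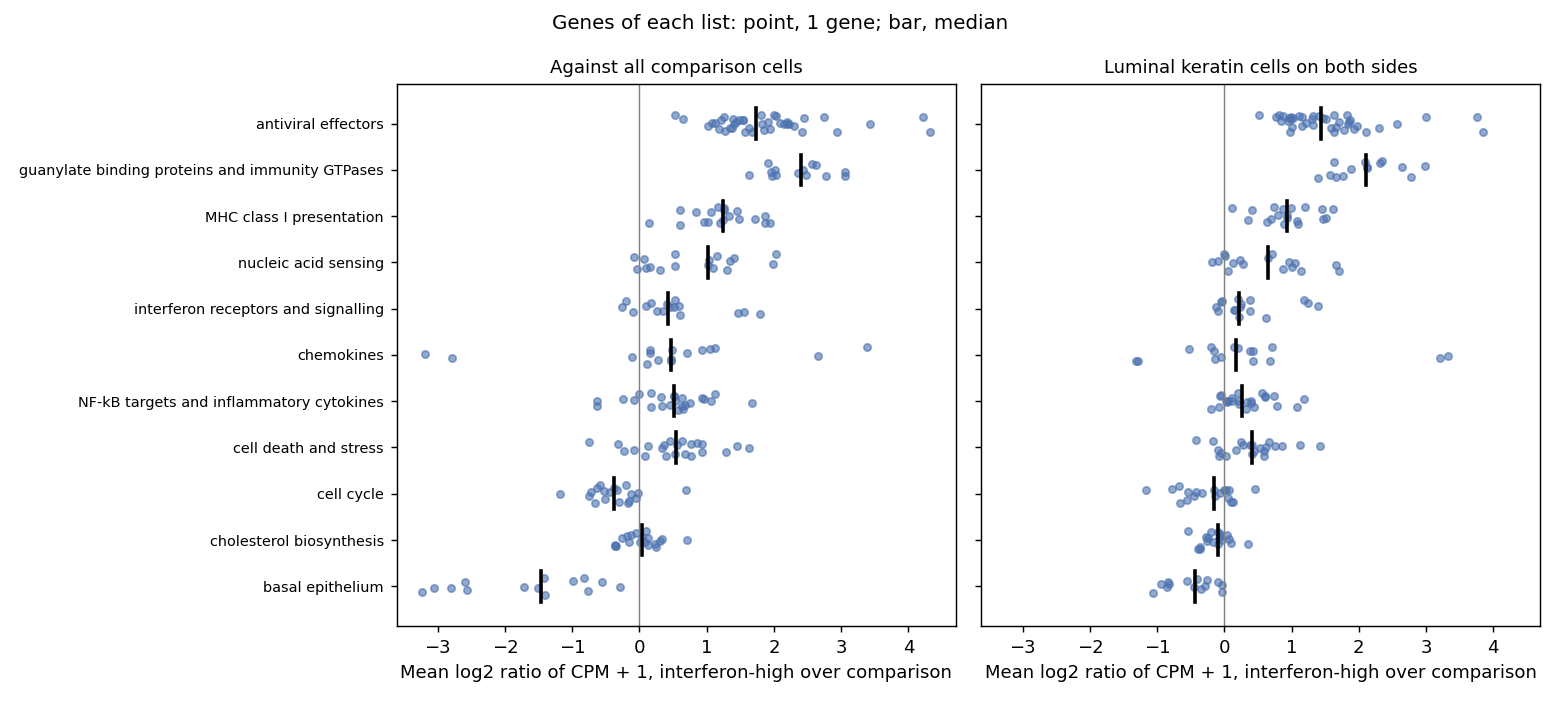
Mean log2 ratio of interferon-high over comparison cells (horizontal axis, CPM plus 1) for each gene of 11 lists at 5 CPM or more, 1 point per gene with the list's median as a bar; the left panel uses all cells and the right panel cells with mainly luminal keratins. The antiviral effectors (median 1.74) and GTPases (2.40) lie to the right in both panels, and the basal list moves from a median of -1.47 to -0.43.

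Transcripts of the interferons themselves lay in a few members. Of 21 interferon genes measured, 5 had a UMI in an interferon-high cell: Ifnb1, Ifnl2, Ifnl3, Ifne and Ifnz. Ifnb1 (minus strand, chr4:88522025-88522774), the gene of interferon beta, had 229 UMIs in all barcodes, and 151 of them (65.9%) lay in 15 interferon-high cells, with 58 and 29 UMIs in PSp and 44 and 20 in PCSp. None lay in the 2347 epithelial barcodes with 1 or 2 rule genes, which limits cells with a captured UMI to 0.128% and says nothing of cells that express the gene at a level too low to be captured, and 5 lay in 4 of the 5595 comparison cells. Cells with an Ifnb1 UMI were thus 2.25% of members and 0.0715% of comparison cells, whose median depths are given above, beside 0.0987% of the shallower barcodes with few keratin and few myeloid UMIs. Ifnl2 (minus strand, chr7:28508836-28510455) had 143 of its 144 UMIs in 5 members, all of them PSp cells (84 and 59 UMIs). Ifnl3 (plus strand, chr7:28522836-28524322) had 100 of 103 in 9 members, with 57 and 35 UMIs in PSp and 1 and 7 in PCSp. The 2 lambda genes are near copies of each other, so their counts are uncertain.

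Other interferons were placed differently. Ifng, the type II interferon of T and NK cells, had 951 UMIs and none in a member, which in the same sense limits members with a UMI to 0.450%, and 917 lay outside the epithelial barcodes. Ifne, an interferon epsilon gene of epithelia, had 64 of 696 UMIs in 51 members (7.65% of cells), beside 7.84% of the cells with 1 or 2 rule genes, 3.79% of comparison cells and 0.0395% of the barcodes with few keratin and few myeloid UMIs, whose median depths were 4959 to 6125 UMIs. The 13 Ifna genes together had 2 UMIs in any barcode of the series. Of the Ifnb1 UMIs outside the epithelium, 29 lay in 5 myeloid barcodes without keratins and 17 in 3 barcodes with both keratin and myeloid UMIs.

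The members with a ligand transcript were few and sat at the top of the grade. A UMI of Ifnb1, Ifnl2 or Ifnl3 was found in 19 of 667 members (2.85%), 6 and 5 from PSp tumours and 5 and 3 from PCSp tumours. Of these, 16 had 5 or 6 rule genes, 18 had mainly luminal keratins, and 2 were among the highest doublet scores. Ifnb1 was alone in 9, a lambda gene alone in 4, and both kinds in 6, and the depth ran from 13393 to 159379 UMIs with a median of 29776. The following genes were chosen after their values were seen, for these 19 cells against the other members, as means over mice. Rsad2 and Ifit2 were several-fold higher (Rsad2 3747 against 792 CPM, Ifit2 1011 against 100.04 CPM). Ccl5 was at 1092 and 200.1 CPM in PSp and 625 and 923 CPM in PCSp, against 29.4 to 49.3 CPM. Tnf was at 680 against 78.7 CPM, Nfkbia, the inhibitor that NF-kB induces, at 1546 against 539 CPM, Cd274 at 50.2 against 7.18 CPM and Gbp5 at 140 against 7.74 CPM. In each of the 4 mice these 4 genes were higher in the ligand-holding cells. Irf7 was at 530 against 541 CPM and Epcam at 2733 against 2414 CPM, and each was lower in the ligand-holding cells of some mice and higher in those of others. With 3 to 6 such cells per mouse these values rest on little material. Without the 19 cells, 125 genes were at least 2-fold higher in every mouse, all of them among the 136.

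**Figure D4:**
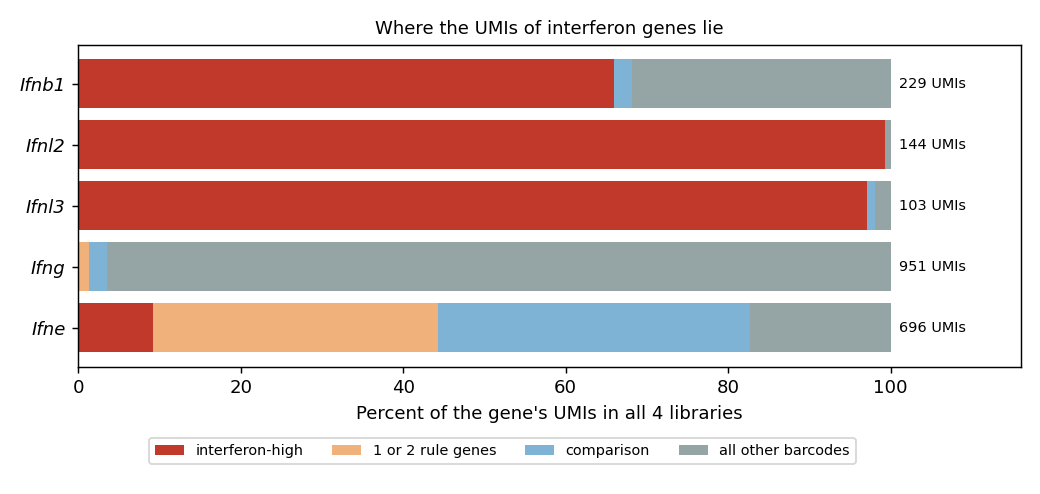
Percent of the UMIs of 5 interferon genes in all 4 libraries (horizontal axis) that lie in interferon-high cells, epithelial cells with 1 or 2 rule genes, comparison cells and all other barcodes, with the number of UMIs at the right. Interferon-high cells hold 65.9% of Ifnb1, 99.3% of Ifnl2 and 97.1% of Ifnl3 UMIs, 9.20% of Ifne and none of Ifng.

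The genotypes were then compared within the members, which asks whether Chd1 loss went with other genes in cells that all met the interferon rule. Chd1 itself was at 94.6 and 76.4 CPM in the PSp and 59.1 and 60.04 CPM in the PCSp interferon-high cells, with no overlap, and at 88.1 and 78.9 against 62.4 and 54.5 CPM in comparison cells. Its log2 fold change in members was -0.51 ± 0.14 (SE; edgeR's quasi-likelihood test with Benjamini-Hochberg adjustment, adjusted p = 0.661); the 3′ reads may lie outside the deleted part of the gene, so this level is no measure of deletion. Spop was at 128, 132, 143 and 152 CPM. By the same test 0 of 12552 genes passed in members (0%), 644 (5.13%) had an unadjusted p under 0.05, and DESeq2 called 24 of 14833 (0.162%). In comparison cells 0 of 15023 passed (0%), 945 (6.29%) had an unadjusted p under 0.05 and DESeq2 called 101 (0.606%). The groups of mice did not overlap for 33.8% of genes in members and 36.8% in comparison cells, so the absence of overlap alone sets no gene apart.

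Among genes at 20 CPM or more, those nearest to the threshold in members were mostly no interferon genes. Lypd8, a gut epithelial protein that keeps flagellated bacteria away, was at 391 and 249 CPM in PSp and 993 and 1120 CPM in PCSp members, a change of 1.74 ± 0.20 on the log2 scale (SE; adjusted p = 0.0651, edgeR). It was also higher in interferon-high than in comparison cells of all mice (40.1, 76.2, 70.4 and 99.8 CPM in the latter, where the genotype change was 0.51 ± 0.34). Gm42031 (29.4 and 25.8 against 296 and 136 CPM) and Wdfy1, an endosomal adaptor of toll-like receptor signalling (14.3 and 11.7 against 34.1 and 42.0 CPM), had the same adjusted p, and both had log2 fold changes of similar size in comparison cells, 2.73 ± 0.17 and 1.38 ± 0.12. Tnf was at 73.9 and 61.2 against 109 and 122 CPM (0.78 ± 0.14, edgeR adjusted p = 0.281), and at 21.7 and 28.3 against 26.9 and 31.3 CPM in comparison cells. Lower in PCSp members were the kallikrein Klk1 (162 and 99.1 against 9.26 and 0.451 CPM), with edgeR adjusted p = 0.0651, and the interferon-induced genes Trim30d (57.6 and 58.8 against 27 and 23.5 CPM, the same p) and Trim12a (98.1 and 88.5 against 48.6 and 53.3 CPM, adjusted p = 0.168). Trim12a was also lower in the PCSp comparison cells (-1.30 ± 0.16, SE, edgeR adjusted p = 0.353). None of these 7 genes passed edgeR's adjusted threshold with all members, and in each of them both PSp values lay on the same side of both PCSp values. DESeq2 called all of them but Klk1 (Tnf with adjusted p = 0.0189, the others with smaller values), and edgeR called Gm42031 and Klk1 when the highest doublet scores were left out (adjusted p = 0.0448).

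Interferon-induced genes had lower values in the PCSp comparison cells. In comparison cells 40 of 41 antiviral effectors tested had a lower value in PCSp, with a median log2 fold change of -0.60, where 52.97% of all genes were lower and the median was -0.01. In members 29 of 41 were lower, with a median of -0.09, beside 49.7% of all genes and a median of 0.00. This rested on single mice: without PCSp 2, 39 of 42 were lower in members (median -0.23), and without PCSp 1, 23 of 43 (median -0.03). Isg15 shows the pattern: in comparison cells it was at 330 and 375 CPM in PSp and 236 and 160 CPM in PCSp, and in members at 1852 and 2187 against 1751 and 2277 CPM, where the genotypes overlapped. Ifi27l2a, a small interferon-induced gene, was at 430 and 453 against 161 and 104 CPM in comparison cells (-1.77 ± 0.21, edgeR adjusted p = 0.353). It was at 810 and 799 against 472 and 655 CPM in members (-0.50 ± 0.18, edgeR adjusted p = 0.915). Usp18 was at 66.7 and 69.6 against 45.4 and 42.6 CPM in comparison cells, and at 242 and 215 against 193 and 242 CPM in members.

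The difference of the genotype effect between the 2 groups of cells was tested with the mouse as a block, and 0 of 14669 genes passed edgeR's adjusted threshold (0%) and the mice did not overlap for 35.6%, with 809 (5.52%) at an unadjusted p under 0.05 and 9 called by DESeq2 (0.0654% of 13761). Of 42 antiviral effectors 5 had a negative difference and the others a positive one, with a median of 0.37, 17 genes at an unadjusted p under 0.05 and none passing after adjustment, and the median over all genes was -0.03. Leaving out 1 mouse at a time moved the median between 0.15, without PCSp 2, and 0.53, without PCSp 1. The difference was 0.85 ± 0.26 for Isg15 (SE, edgeR adjusted p = 0.776) and 1.23 ± 0.29 for Ifi27l2a (adjusted p = 0.572). Since the rule holds members of both genotypes to the same floor on 6 interferon-induced genes, what this choice and the genotype each add to the difference cannot be told apart. MHC class I had a median of -0.29 in comparison cells, -0.09 in members and 0.22 for the difference. Without 1 mouse its median in comparison cells ran from -0.51 (without PCSp 1) to -0.06 (without PSp 2), and that of the difference from 0.01 (without PCSp 2, 9 of 20 negative) to 0.44 (without PCSp 1).

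Lists without interferon genes also differed between the groups of cells in their medians. Of all genes tested, 52.97% had a lower value in PCSp in comparison cells and 49.7% in members. Of 25 cell cycle genes 23 had a lower value in the PCSp comparison cells (median -0.50), for example Mki67, chosen after its values were seen, at 22.7 and 22.3 against 15.1 and 15.7 CPM. In members 8 of 25 were lower with a median of 0.24, which became -0.26 without PCSp 1 and -0.01 without PSp 1. Mki67 was at 8.86 and 14.6 against 14.2 and 9.93 CPM there, where the genotypes overlapped. Of 20 cholesterol synthesis genes, whose pathway makes sterols from acetyl-CoA, 3 were lower in PCSp members (median 0.30) and 8 in comparison cells (median 0.10). Without 1 mouse the median in members ran from 0.17 (without PSp 2 or PCSp 2) to 0.48 (without PCSp 1), and in comparison cells it became -0.05 without PCSp 2. Other lists went with genotype in the same cells. In comparison cells 11 of 12 neuroendocrine genes passed the filter on low counts, and all 11 had higher values in PCSp (median 2.47). Fibroblast markers had a median of 1.05 there, and 11 of 13 mitochondrially encoded genes had lower values (median -0.32). In members 10 of 13 mitochondrially encoded genes were lower in PCSp (median -0.33). Of 12 neutrophil markers only 5 passed the filter on low counts in members, and all 5 were higher in PCSp (median 1.94). A gene low in PSp can pass this filter through PCSp alone, so the neutrophil and neuroendocrine counts of direction carry little weight. All 12 neutrophil markers summed to 13.9 and 24.8 CPM in PSp and 41.2 and 100.2 CPM in PCSp. The part of these lists in the values of other genes was not tested. The genes with the smallest p for the difference, none of which passed, were Ndufa4l2 (-1.60 ± 0.20, SE, edgeR adjusted p = 0.184), a mitochondrial protein induced by hypoxia, and Tm4sf4 (-1.41 ± 0.18, the same adjusted p). Tm4sf4 was at 14.5 and 12.6 against 31.6 and 43.6 CPM in comparison cells and at 59.4 and 38.0 against 37.7 and 65.0 CPM in members. Ifi202b, an interferon-induced DNA-binding protein, was at 154 and 97.6 against 120 and 138 CPM in comparison cells and at 83.8 and 45.6 against 30.2 and 24.4 CPM in members (difference -1.20 ± 0.16, edgeR adjusted p = 0.199).

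**Figure D5:**
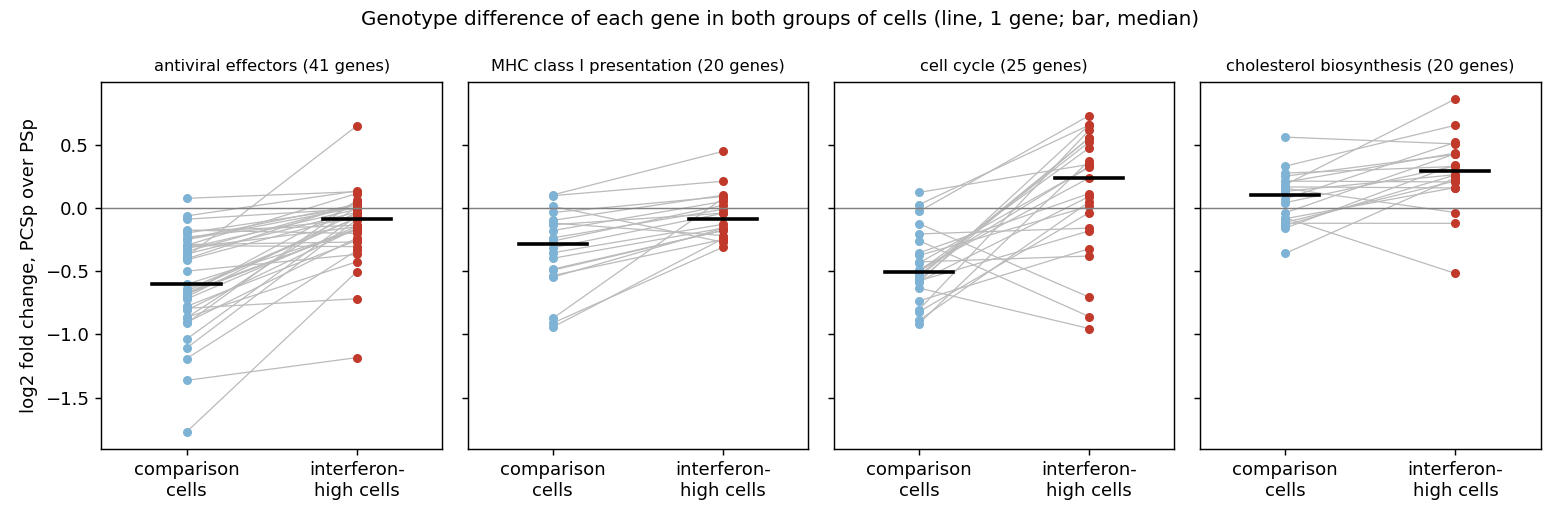
Log2 fold change of PCSp over PSp (vertical axis) for each gene of 4 lists in comparison cells and in interferon-high cells, with 1 line per gene and the median as a bar. The median of the antiviral effectors is -0.60 in comparison cells and -0.09 in interferon-high cells, that of the cell cycle -0.50 and 0.24, and no single gene passed the adjusted threshold of edgeR in either.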

How the data were processed

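The authors deposited UMI counts per gene and barcode for the 4 tumours, made with Cell Ranger 6.1.2 on mm10 per the submitters' processing notes; the counts are raw. The members and gene lists were chosen with earlier results of these data known. Counts of interferon-high and of comparison cells were summed per mouse (at least 10 cells each) and scaled to CPM. Genotypes were compared with the quasi-likelihood test of edgeR 4.0.16 (R 4.3.3, TMM, filterByExpr, two-sided, threshold 0.05 after Benjamini-Hochberg adjustment over all genes tested), and DESeq2 1.42.0 was the alternative. In members the biological coefficient of variation was 14.5%, with 2 residual degrees of freedom. On simulated data with 12552 genes in the members' design, edgeR found 1 of 67 genes changed by 0.5 (log2). It found 35 of 67 changed by 1 and 59 of 66 changed by 2, with 7 false calls among 102. Whether the measured counts of the members allow the same rates was not tested. Described genes needed a mean of 5 CPM over both groups of cells. Genes named are the rule genes, Chd1 and Spop, the 20 highest and 10 lowest by their least extreme ratio at 20 CPM or more, the 3 most abundant and 2 most different of each list, and the 5 per direction of smallest p in each genotype comparison; others are marked as chosen later. Doublets were scored with Scrublet in scanpy 1.11.5 (Python 3.11.15), with exact tests from scipy 1.17.1. Of 32285 gene IDs, 32158 were found in GENCODE M21. Of the 6 rule genes no genotype test is reported. An allele shared by all mice and a few genes are not reported here.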

Additional observations from a re-analysis of the deposited data

How the results depend on the processing

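No paired analysis was possible because the replicate numbers were given in accession order and the mice of the 2 genotypes share no litter or batch in the labels. The log2 ratio of the mean shares (-1.32) kept its direction in each setting listed here: -0.53 and -0.96 after thinning, -1.09 and -1.28 with 2 and 4 genes, -1.34 at 5000 UMIs, -1.34 at 10% mitochondrial UMIs, -1.26 without the highest doublet scores and -1.16 at 20000 UMIs (the last chosen after seeing the data), and -1.81 to -0.95 without 1 mouse. It was not kept among cells with 10000 to under 20000 UMIs. There the shares were 0.860% and 4.71% in PSp and 3.21% and 2.68% in PCSp, and the PSp mean was slightly the lower. The counts of genes past the adjusted threshold depended on the setting. In members it was 0 with edgeR, 24 with DESeq2, 27 to 146 without 1 mouse, 2 without the highest doublet scores (Gm42031 and Klk1) and 2 with 4 of 6 genes (Gm42031 and Lypd8; this setting was chosen after seeing the data and turned Klk1 to 1.46, adjusted p = 1.00). In comparison cells it was 101 with DESeq2, 9 without a filter on low counts and 0 to 58 without 1 mouse, and for the difference between the groups of cells 9 with DESeq2, 51 without a filter and 0 to 166 without 1 mouse; the cause was not tested. Without 1 mouse, the lone mouse of a genotype is assumed to vary like the other 2. Weighting comparison cells to the members' keratin classes left 80 genes higher and 8 lower in every mouse, and luminal keratin cells alone (chosen after seeing the data) 78 and 11. Leaving out the 19 ligand-holding cells (chosen after seeing the data) turned the ratio of Ifnb1 to -0.064, since these cells hold its UMIs. Of the other values of named genes, 118 genotype values kept their direction and side of the threshold and 101 passed it in some setting, and 1595 ratios moved by less than the spread between mice and 274 by more. Depth limits the rule in cells of few UMIs, and 69 cells from PCSp 2 give its levels the least precision.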
